A study of Mus musculus with 45 samples.

Results

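The data here are ATACseq counts of accessible chromatin around 8 Sox genes other than Sox2, in mouse embryonic stem cells (mESC) from which SOX2, OCT4 or NANOG was removed. A peak was taken where its summit lay within 40 kb of the annotated 5′ end of Sox1, Sox4, Sox9, Sox11, Sox12, Sox15, Sox18 or Sox21, which gave 85 of 184964 peaks. There were 10 peaks for Sox1, 14 for Sox4, 8 for Sox9, 5 for Sox11, 14 for Sox12, 13 for Sox15, 10 for Sox18 and 11 for Sox21. The choice used position only, and 0 peaks fell in the windows of 2 of these genes.

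Each line carries an FKBP tag on one factor, and the small molecule dTAG-13 directs the tagged protein to degradation. SOX2-FKBP and NANOG-FKBP are homozygous knock-in clones of E14 cells, whereas OCT4-FKBP came from another laboratory and a V6.5 background. All lines grew without serum, with LIF and inhibitors of MEK and GSK3. Cells given 500 nM dTAG-13 were compared with not treated (NT) cells, which received DMSO. SOX2-FKBP has 2 libraries per time (NT, 0.5, 1, 2, 6 and 24 h), OCT4-FKBP has 2 (NT, 2, 6 and 24 h) and NANOG-FKBP has 2 for NT and 3 for each of 2, 6 and 24 h. Strain, clone and tagged factor cannot be told apart between the lines. The labels do not say that replicates were separate cultures, so p-values measure the spread between these libraries only. In bulk chromatin, fewer cells with an open site and less opening per cell cannot be told apart.

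Sox genes encode transcription factors that bind DNA through an HMG box, which reads short sites related to CATTGT and bends the DNA. In mESC, SOX2 binds beside the POU factor OCT4 at composite sites, in which a SOX site stands next to an octamer. The family is grouped by the HMG box. Sox1 belongs to group B1 with Sox2, Sox21 to group B2, Sox4, Sox11 and Sox12 to group C, Sox9 to group E, Sox18 to group F and Sox15 to group G. Sox1 and Sox21 act in neural progenitors, Sox4 and Sox11 in neural and other progenitors, Sox9 in cartilage, testis and many stem cells, and Sox18 in endothelium. The comparison asks whether chromatin at these loci opened or closed once SOX2 or a partner factor was gone.

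In mm10 the genes are Sox1 (chr8:12395295-12400126, plus strand), Sox4 (chr13:28948919-28953713, minus strand), Sox9 (chr11:112782224-112787760, plus strand), Sox11 (chr12:27334264-27342574, minus strand), Sox12 (chr2:152393611-152398063, minus strand), Sox15 (chr11:69655314-69656727, plus strand), Sox18 (chr2:181669836-181671640, minus strand) and Sox21 (chr14:118233232-118237030, minus strand). Of the 85 peaks, 18 lay within 1 kb of the start of a coding gene (21.2%, against 7.59% of all peaks) and 67 were distal. Summits were intergenic for 41 peaks, intronic for 23, in an untranslated region for 14 and in another exon for 7. The nearest coding start was that of the Sox gene for 57 peaks and that of another gene for 28, since Sox12, Sox15 and Sox18 lie among other genes. A peak is named by its gene and the distance of its summit from the 5′ end in kb, downstream positive, and this name states a position, not a target gene.

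Reference sequence is shown for the peaks on which the results turn, in 200 bp around the summit (mm10, a C57BL/6J reference, plus strand). Capitals mark matches on either strand to the SOX hexamers CATTGT and CTTTGT, to the octamer ATGCAAAT, and to a composite of hexamer, 1 free base and octamer with at most 2 mismatches in 14 scored bases. A composite overlaps the octamer in it. The first 3 are the Sox9 peaks that hold an octamer, at chr11:112801486-112801685, chr11:112811148-112811347 and chr11:112820203-112820402.
Sox9 +19.4: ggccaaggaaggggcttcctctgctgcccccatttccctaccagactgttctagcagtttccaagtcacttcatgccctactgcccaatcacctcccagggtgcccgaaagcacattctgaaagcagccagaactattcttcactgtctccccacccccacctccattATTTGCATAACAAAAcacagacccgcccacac
Sox9 +29.0: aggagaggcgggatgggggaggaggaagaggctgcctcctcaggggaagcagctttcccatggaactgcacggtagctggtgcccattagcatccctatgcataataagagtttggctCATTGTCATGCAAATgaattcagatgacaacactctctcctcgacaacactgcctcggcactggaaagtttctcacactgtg
Sox9 +38.1: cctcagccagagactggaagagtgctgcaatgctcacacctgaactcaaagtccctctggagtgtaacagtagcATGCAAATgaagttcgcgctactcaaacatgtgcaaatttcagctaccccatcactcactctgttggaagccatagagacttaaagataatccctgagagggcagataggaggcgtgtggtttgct

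The other 3 are the peak with the deepest loss (Sox11 +21.7, chr12:27320799-27320998), a peak lost without SOX2 or NANOG (Sox18 +35.9, chr2:181635681-181635880) and the peak with the largest gain (Sox4 +35.9, chr13:28917739-28917938).
Sox11 +21.7: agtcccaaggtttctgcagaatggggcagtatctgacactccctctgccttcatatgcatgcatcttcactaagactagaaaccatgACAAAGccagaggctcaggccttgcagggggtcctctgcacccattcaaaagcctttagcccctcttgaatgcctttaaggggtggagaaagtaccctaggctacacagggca
Sox18 +35.9: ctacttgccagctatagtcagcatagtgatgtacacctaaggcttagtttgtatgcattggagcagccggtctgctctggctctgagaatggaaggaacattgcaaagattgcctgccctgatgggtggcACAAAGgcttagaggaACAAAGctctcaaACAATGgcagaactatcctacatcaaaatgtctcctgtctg
Sox4 +35.9: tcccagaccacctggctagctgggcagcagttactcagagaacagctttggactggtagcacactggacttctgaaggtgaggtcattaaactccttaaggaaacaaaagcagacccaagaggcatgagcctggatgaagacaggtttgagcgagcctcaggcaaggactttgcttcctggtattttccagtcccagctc

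Sox9 +29.0 holds a composite without mismatch, CATTGTCATGCAAAT, and Sox9 +19.4 holds TTTTGTTATGCAAAT on the minus strand, with 1 mismatch. These were the only composites in the windows of the 85 peaks (2.35%, against 1.104% of all peaks read), and the 3 octamers were those of the Sox9 peaks shown (3.53% against 2.05%). A SOX hexamer stood in 24 of the 85 windows (28.2%, against 25.5%). Sox11 +21.7 holds 1 hexamer and Sox18 +35.9 holds 3, without an octamer, and Sox4 +35.9 holds no match. Among all tested peaks with a composite, 64.2% lost accessibility by 24 h in SOX2-FKBP and 62.4% in OCT4-FKBP, against 10.2% and 10.1% of peaks with no match. A match describes the sequence and is not a measured binding site.

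Libraries held 1817191 to 17575631 counts in peaks. The 3 treated NANOG-FKBP libraries of replicate 2 were the shallowest (1817191 to 3272168), with 13.2% to 17.56% of counts on the mitochondrial genome, against 1.42% to 6.65% in the other 28. Chromosome 8, which carries Sox1, took 5.17% to 5.35% of counts in SOX2-FKBP and 7.41% to 7.71% in OCT4-FKBP. In NANOG-FKBP it took 6.998% to 7.104% in 4 libraries (NT replicate 2 and the treated replicate 3) and 5.51% to 5.80% in the other 7, so Sox1 levels are not compared between lines. Of the mESC markers, 7 of 8 had a peak within 1 kb of the 5′ end, with NT levels of 0.644 to 51.8 CPM per kb, where CPM are counts relative to the TMM-scaled library size. Zfp42 (34.7 to 51.8) and Nanog (22.4 to 45.8) were high. Sox2 (11.1 to 14.4) and Esrrb (1.53 to 3.33) lay within the range of the other cell types' markers. So did the lowest values at Klf4 (15.8 to 18.0) and Dppa3 (0.644 to 33.1). Such a peak was present for 3 of 4 primitive endoderm markers (3.88 to 9.57), 3 of 3 trophectoderm markers (0.597 to 16.1), 2 of 3 mesoderm markers (2.75 to 9.73) and 2 of 3 neural markers (1.36 to 7.57). Protein loss cannot be read from these counts.

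After SOX2 loss, the early calls at Sox peaks were losses. In the fit of all 12 SOX2-FKBP libraries, with a low-count filter, TMM scaling and no pairing of replicates, gains passed only at 24 h. With edgeR's quasi-likelihood test over all peaks (Benjamini-Hochberg adjusted p below 0.05), the numbers lost over the 5 successive times were 2, 3, 5, 7 and 10 of 80 tested. Over all peaks the lost shares were 3.14%, 5.46%, 7.28%, 9.28% and 14.1%, so the Sox shares (2.50%, 3.75%, 6.25%, 8.75% and 12.5%) lay near the background. At the first 4 times 0 Sox peaks were gained (background 0.158%, 0.889%, 1.46% and 2.66%), where 0, 0, 2 and 3 were higher at an unadjusted p below 0.05 and DESeq2 called 0. At 24 h 8 of 80 (10.0%) were gained, beside 9.17% of all peaks. The median log2 fold change at 24 h was 0.10 for the Sox peaks and 0.04 for all peaks.

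These counts were sensitive to the fit. DESeq2 called 0, 0, 1, 4 and 10 Sox peaks in either direction. The 10 lost and 8 gained of 24 h became 8 and 2 by DESeq2, and 8 and 2 in a fit that also held the other lines. Over all 160432 peaks tested, the 22650 lost and 14716 gained of 24 h became 15171 and 5139 by DESeq2. With the other lines in the fit 18076 were lost and 8100 gained, of 166430 tested. With same-numbered replicates as a block, 10 were lost and 14 gained at 24 h, 7 and 3 at 6 h, 6 and 1 at 2 h, and 6 and 0 at 1 h, where the unpaired fit gave 3 and 0. Over all peaks the block gave 26510 lost and 21853 gained at 24 h, and 11732 and 3855 at 1 h, where the unpaired fit gave 8754 and 1427. With total counts in place of TMM scaling, 3 were lost and 1 was gained at 2 h. Without the low-count filter 5 were lost and 1 was gained at 2 h. Over all peaks these fits gave 10199 lost and 3848 gained, and 12880 lost and 2483 gained. The 0.5 h count fell to 1 without SOX2-FKBP NT replicate 1 and to 0 without NT replicate 2 or 0.5 h replicate 1. The 1 h count fell to 1 without NT replicate 2 or 1 h replicate 1, and the 2 h count to 3 without NT replicate 1 or 2 h replicate 1. At 6 h it was 4 without NT replicate 1 and 3 without 6 h replicate 1, and the 18 changed peaks of 24 h became 9 without NT replicate 1 and 11 without NT replicate 2.

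**Figure D1:**
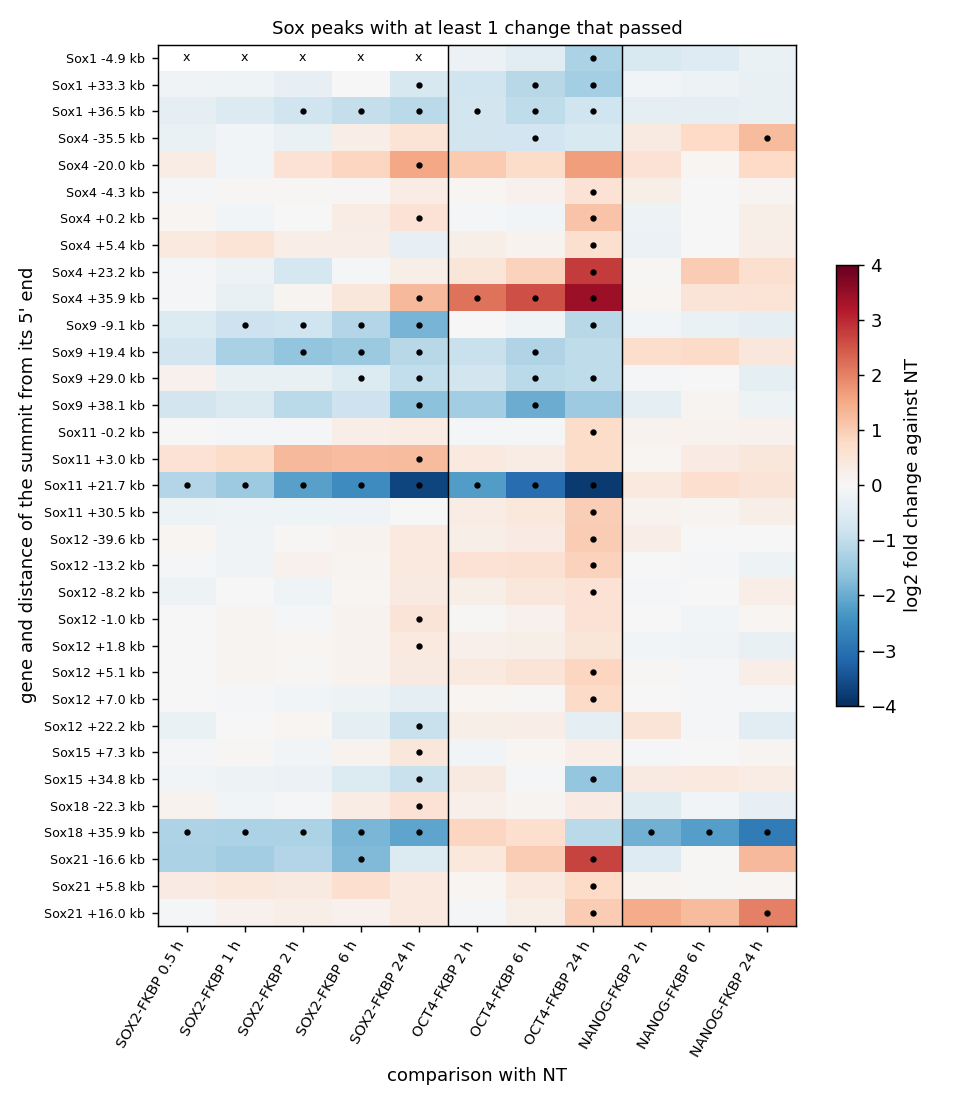
Log2 fold change against NT (colour, blue lower and red higher) of the Sox peaks with at least 1 call, with peaks as rows and the 11 comparisons as columns. Marks show an adjusted p below 0.05. Sox11 +21.7 is lower in all SOX2-FKBP and OCT4-FKBP columns, and most gains are in the OCT4-FKBP 24 h column.

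OCT4 loss gave 2 lost and 1 gained of 81 tested Sox peaks at 2 h (background 5.1% and 1.92%), 7 and 1 at 6 h (7.97% and 4.12%), and 7 and 15 at 24 h (12.7% and 10.8%). The 15 gains are 18.5% of the peaks tested, and the 24 h medians were 0.17 for Sox peaks and -0.01 for all peaks. Scaling changed this split: by total counts 8 were lost and 7 gained, with a median over all peaks of -0.14. Over all peaks the 21078 lost and 18027 gained of 24 h became 23236 and 12187 by total counts. A single library weighed heavily, since 8 peaks in either direction passed without OCT4-FKBP 24 h replicate 1 and 14 without NT replicate 2, in place of 22. At 6 h 4 passed without NT replicate 2, in place of 8. With the replicate block 6 were lost and 3 gained at 2 h, 7 and 6 at 6 h, and 12 and 19 at 24 h. In a fit of OCT4-FKBP alone the 24 h split was 5 and 9. Over all peaks the 24 h split was 26382 and 25135 with the block, and 17671 and 13610 in the fit of that line alone.

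NANOG loss changed few of these peaks. A single peak of the 81 tested was lost at each time (background 0.938%, 1.08% and 2.25%), and this was Sox18 +35.9 each time. At 2 and 6 h 0 were gained (0.0162% and 0.0367%), where 2 and 3 were higher at an unadjusted p below 0.05 and DESeq2 called 0. At 24 h 2 were gained (0.288%). Without NANOG-FKBP NT replicate 1 no peak passed at 2 or 6 h in edgeR, and the counts were the same (1, 1 and 3) without the 3 shallow libraries.

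SOX2-FKBP and OCT4-FKBP, which have separate NT libraries, shared part of the losses. At 24 h 6 peaks were lost in both, which is 60% of the 10 in SOX2-FKBP and 85.7% of the 7 in OCT4-FKBP: Sox1 +33.3, Sox1 +36.5, Sox9 -9.1, Sox9 +29.0, Sox11 +21.7 and Sox15 +34.8. Over all peaks the shares of losses in common were 54.4% of those in SOX2-FKBP and 58.5% of those in OCT4-FKBP. Gains in both were Sox4 +0.2 and Sox4 +35.9, which are 25.0% of 8 and 13.3% of 15, beside 39.5% and 32.2% over all peaks. The low-count filter left 80 peaks in the SOX2-FKBP fit, 81 in the fit of the 3 lines and 82 in at least 1 of them. Over the 11 comparisons 13 peaks were lost at least once (20.5% of all tested peaks were) and 22 gained (19.3%), and 2 of these were both. A call was absent for 52 of the 85, which include the 3 never tested (61.7% of all tested peaks had none).

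**Figure D2:**
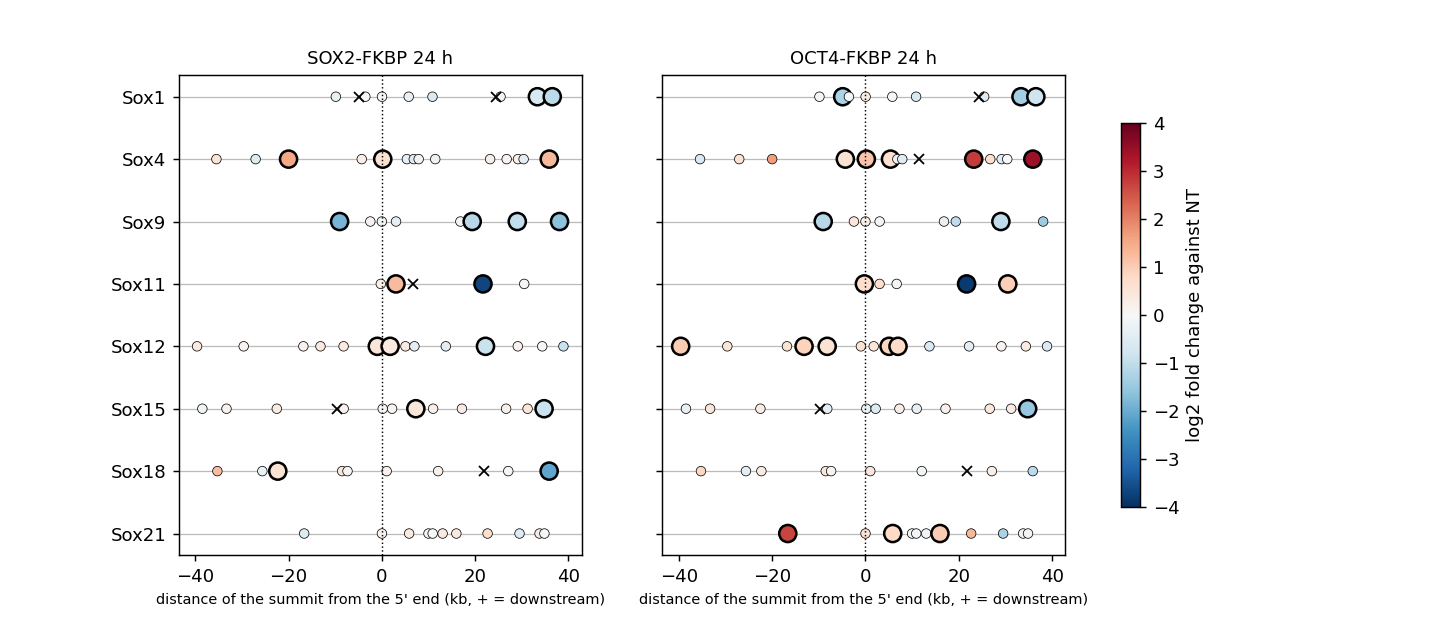
Sox peaks by distance of the summit from the 5′ end of the gene (x axis, kb, downstream positive), with one row per gene, in SOX2-FKBP and OCT4-FKBP at 24 h. Colour gives the log2 fold change, and peaks with an adjusted p below 0.05 are ringed. The deepest loss, Sox11 +21.7, and the largest gain, Sox4 +35.9, both lie far from the 5′ ends.

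The peaks nearest the 5′ ends were open before treatment. Sox18 +1.0 lies 1029 bp from the 5′ end, just past the 1 kb limit for promoter peaks. Per kb, the mean NT level at Sox12 -1.0 exceeded that of 84.1%, 84.9% and 88.8% of all promoter peaks in SOX2-FKBP, OCT4-FKBP and NANOG-FKBP, and at Sox15 +0.2 of 70.1%, 86.8% and 64.0%. Sox9 +0.0 was lower, above 18.5%, 28.3% and 17.7%. Through 6 h in SOX2-FKBP and OCT4-FKBP, edgeR called 0 of 48 peak and time pairs, with log2 fold changes from -0.30 to 0.29 and a lowest adjusted p of 0.398. Of all promoter peaks, 0.211%, 0.792%, 1.45% and 2.9% were called in SOX2-FKBP over these times and 1.14% and 3.74% in OCT4-FKBP. None of the 48 had an unadjusted p below 0.05, and DESeq2 called 0. In NANOG-FKBP 0 of 24 passed, with a lowest adjusted p of 0.811 and again 0 at an unadjusted p below 0.05 and 0 by DESeq2 (0.0577%, 0.0794% and 0.267% of all promoter peaks were called).

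At 24 h some of these nearest peaks were higher. Sox4 +0.2 held 15.6 and 14.6 normalized counts (CPM) in SOX2-FKBP NT cells and 19.4 and 25.5 at 24 h (log2 fold change 0.57 ± 0.19 SE, adjusted p = 0.022). In OCT4-FKBP it held 17.5 and 14.1 in NT and 40.01 and 28.6 at 24 h (1.13 ± 0.26, adjusted p = 0.00126). The groups did not overlap in either line. The call was lost without SOX2-FKBP NT replicate 1 (0.62), SOX2-FKBP NT replicate 2 (0.53) or SOX2-FKBP 24 h replicate 2 (0.35) in SOX2-FKBP, and without OCT4-FKBP 24 h replicate 1 (0.88) in OCT4-FKBP. The SOX2-FKBP call was also absent under DESeq2 and the fit of all 3 lines. Sox12 -1.0 rose in SOX2-FKBP from 41.1 and 48.8 to 60.1 and 67.5 CPM (0.51 ± 0.14), a call lost without SOX2-FKBP NT replicate 1 (0.39) or SOX2-FKBP 24 h replicate 2 (0.41) and absent in the fit of all 3 lines. In OCT4-FKBP its 24 h change was similar in size but did not pass (0.58 ± 0.22, adjusted p = 0.0552 in edgeR). The difference between the lines was -0.03 ± 0.32 and did not pass. Sox11 -0.2 was called gained in OCT4-FKBP (0.72 ± 0.25) on 25.7 and 27.2 CPM in NT and 58.3 and 28.8 at 24 h. Treated replicate 1 stood well above replicate 2, and the call was lost without OCT4-FKBP NT replicate 1 (0.68), OCT4-FKBP NT replicate 2 (0.74) or OCT4-FKBP 24 h replicate 1 (0.13), and absent under the fit of OCT4-FKBP alone and total counts. Among all promoter peaks tested, 24.6% were gained at 24 h in SOX2-FKBP and 48.6% in OCT4-FKBP. The shares were 22.2% and 11.1% of the 18 Sox peaks within 1 kb of any coding start. These 18 include starts of genes other than the Sox genes, and 8 of them were Sox15 peaks. Their SOX2-FKBP gains included peaks at the promoters of Mpdu1 and Rgs19. DESeq2 turned the order of the shares of these 18, with gains at 1 in SOX2-FKBP and 4 in OCT4-FKBP. Of the distal Sox peaks, 4 of 62 were gained in SOX2-FKBP (6.45%, against 7.73% of all distal peaks). In OCT4-FKBP 13 of 63 distal Sox peaks were gained (20.6%, against 7.40%), and by total counts only 7 Sox peaks in all were gained there.

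**Figure D3:**
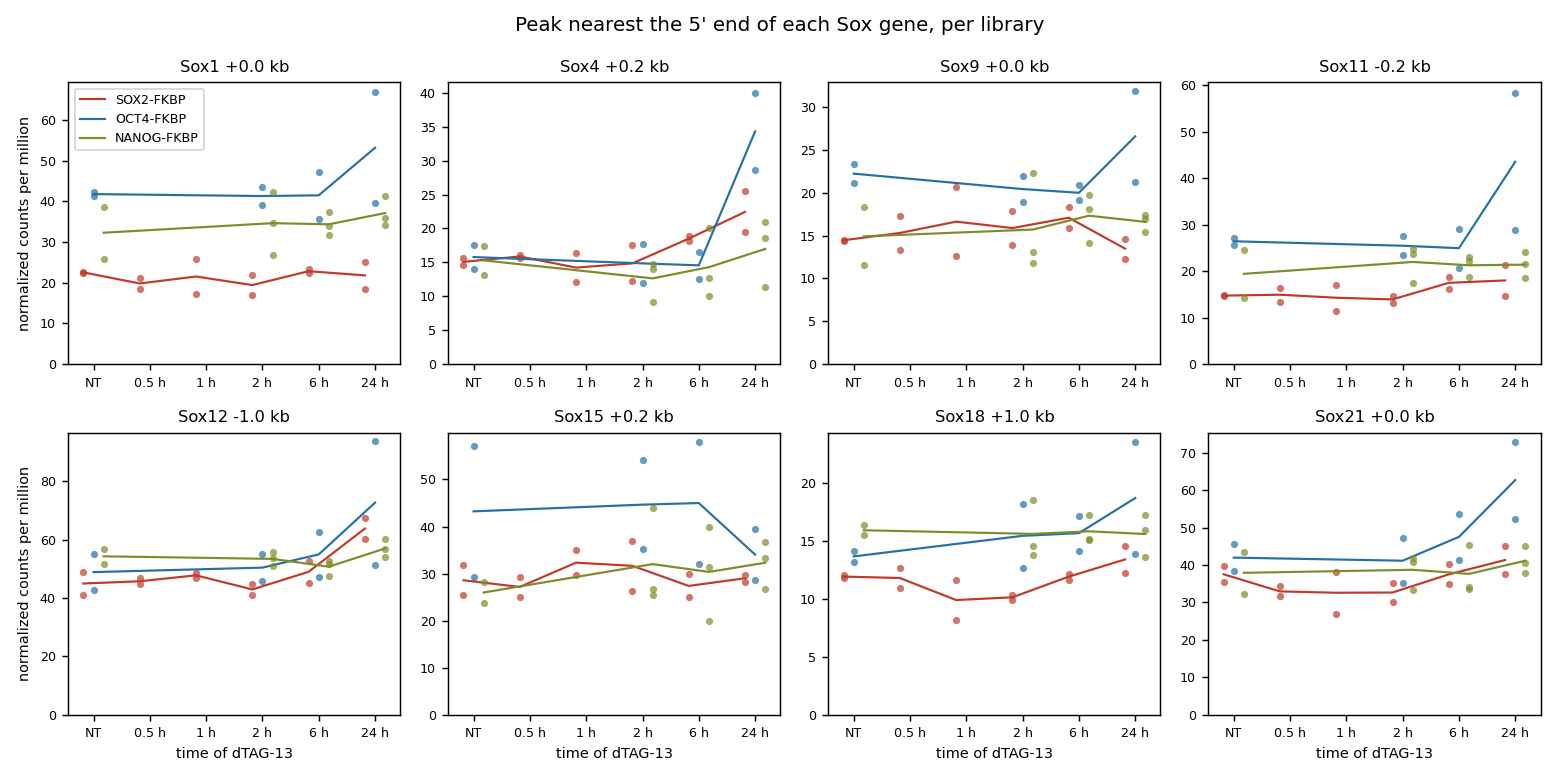
Normalized counts, CPM (y axis) of the peak nearest the 5′ end of each of the 8 genes, in NT and after dTAG-13 (x axis, hours), with one point per library and lines through group means for the 3 lines. Through 6 h no change passed the test, and Sox4 +0.2 is higher at 24 h in SOX2-FKBP and OCT4-FKBP.

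In group B1, 3 of 10 Sox1 peaks (9 tested) were called lost at least once and none gained, beside 20.5% and 19.3% of all tested peaks. Sox1 +36.5 (chr8:12429667-12432264) lies over an exon of the non-coding gene Sox1ot. In SOX2-FKBP it held 12.3 and 12.9 CPM in NT, then 8.45 and 11.2 (0.5 h), 6.87 and 10.8 (1 h), 5.71 and 8.71 (2 h), 5.77 and 7.202 (6 h) and 4.55 and 7.34 (24 h). All treated libraries lay below both NT libraries, and the change passed from 2 h on (-0.79 ± 0.23, -0.95 ± 0.23 and -1.08 ± 0.24). The 2 h call was lost without SOX2-FKBP NT replicate 1 (-0.83), SOX2-FKBP NT replicate 2 (-0.76) or SOX2-FKBP 2 h replicate 1 (-0.55), and the 6 h call without SOX2-FKBP 6 h replicate 1 (-0.83). The former was also absent under DESeq2, the fit of all 3 lines and total counts.

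In OCT4-FKBP Sox1 +36.5 went from 22.01 and 29.6 CPM to 14.7 and 16.6 (2 h), 13.4 and 12.2 (6 h) and 14.97 and 14.97 (24 h). Again no treated library reached an NT library, with changes of -0.72 ± 0.22, -1.01 ± 0.22 and -0.79 ± 0.23. The calls were lost without OCT4-FKBP NT replicate 2 (-0.48), OCT4-FKBP 2 h replicate 1 (-0.64) or OCT4-FKBP 2 h replicate 2 (-0.79) at 2 h, without OCT4-FKBP NT replicate 2 (-0.76) at 6 h and without OCT4-FKBP NT replicate 2 (-0.58), OCT4-FKBP 24 h replicate 1 (-0.78) or OCT4-FKBP 24 h replicate 2 (-0.79) at 24 h. Under DESeq2 and the fit of OCT4-FKBP alone the 2 h call was absent. The difference between the lines did not pass (-0.01 ± 0.32, 0.11 ± 0.34 and -0.25 ± 0.35).

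Sox1 +33.3, in an intron of Sox1ot, was lost late in SOX2-FKBP (7.04 and 7.44 CPM in NT, 3.88 and 5.29 at 24 h, -0.65 ± 0.24). In OCT4-FKBP it went from 7.72 and 8.12 to 3.22 and 4.14 at 6 h (-1.10 ± 0.26) and 2.596 and 3.58 at 24 h (-1.36 ± 0.31). Sox1 -4.9 was called lost in OCT4-FKBP at 24 h (-1.28 ± 0.45) and was too low to test in the SOX2-FKBP fit.

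In group B2, Sox21 -16.6 (chr14:118253292-118253957), in an intron of Gm4675, was called gained in OCT4-FKBP at 24 h and lost in SOX2-FKBP at 6 h only. In OCT4-FKBP it held 3.94 and 1.79 CPM in NT, 4.93 and 2.62 at 2 h, 7.16 and 4.2 at 6 h and 14.7 and 21.97 at 24 h, and the 24 h gain passed (2.72 ± 0.37, adjusted p = 5.17e-07). In SOX2-FKBP it was low, with 2.98 and 0.971 in NT, 0.4197 and 0.8103 at 6 h and 1.66 and 1.29 at 24 h. Its 6 h loss (-1.76 ± 0.50, adjusted p = 0.013) rested on 30 and 6 counts in NT and 4 and 9 at 6 h, and was lost without SOX2-FKBP NT replicate 1 (-0.62) or SOX2-FKBP 6 h replicate 1 (-1.43). This loss was also absent under DESeq2 and the fit of all 3 lines. The change in SOX2-FKBP minus that in OCT4-FKBP was -2.73 ± 0.72 at 6 h (adjusted p = 0.023) and -3.21 ± 0.65 at 24 h (adjusted p = 0.00251). These calls were lost without SOX2-FKBP NT replicate 1 (-1.69), SOX2-FKBP 6 h replicate 1 (-2.45), SOX2-FKBP 6 h replicate 2 (-3.37), OCT4-FKBP NT replicate 2 (-2.31) or OCT4-FKBP 6 h replicate 1 (-2.30) at 6 h, and without SOX2-FKBP NT replicate 1 (-2.11) at 24 h.

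Other Sox21 calls were gains. Sox21 +16.0 went from 0.986 and 1.17 CPM to 4.24, 4.54 and 4.4 at 24 h in NANOG-FKBP (2.01 ± 0.43), without overlap, and was also gained in OCT4-FKBP at 24 h (1.02 ± 0.37). Sox21 +5.8 was gained in OCT4-FKBP at 24 h (0.78 ± 0.25), a call lost without OCT4-FKBP NT replicate 2 (0.49) or OCT4-FKBP 24 h replicate 1 (0.41) and absent under the fit of OCT4-FKBP alone and total counts.

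In group C, Sox11 +21.7 (chr12:27320189-27321385, intergenic) showed the deepest loss of the Sox peaks tested. In SOX2-FKBP it held 6.45 and 11.2 CPM in NT, 3.05 and 4.82 at 0.5 h, 2.86 and 3.42 at 1 h, 0.754 and 2.84 at 2 h, 1.78 and 1.17 at 6 h and 0.776 and 0.539 at 24 h, the last being 7.47% of the NT mean. Every treated library lay below both NT libraries. The log2 fold changes were -1.17 ± 0.31, -1.45 ± 0.33, -2.19 ± 0.34, -2.53 ± 0.35 and -3.66 ± 0.42, with an adjusted p of 0.0255 at 0.5 h and 1.3e-08 at 24 h. The 0.5 h call was lost without SOX2-FKBP NT replicate 2 (-0.78) or SOX2-FKBP 0.5 h replicate 1 (-0.81), and the 1 h call without SOX2-FKBP NT replicate 2 (-1.05) or SOX2-FKBP 1 h replicate 1 (-1.30). The former was also absent under DESeq2 and total counts, and the latter under DESeq2. From 2 h on the calls held in each alternative fit and without each library.

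The same peak was lost without OCT4. It went from 11.99 and 13 CPM to 1.55 and 3.54 at 2 h, 1.42 and 1.61 at 6 h and 0.916 and 0.814 at 24 h (-2.23 ± 0.45, -3.04 ± 0.48 and -3.83 ± 0.63). The differences between the lines (0.09 ± 0.74, 0.54 ± 0.76 and 0.19 ± 1.14) did not pass. In NANOG-FKBP NT held 14.2 and 10.8 and treated libraries 9.49 to 34.1, with the shallow replicate 2 library the highest at each time. No change passed there (0.39 ± 0.41, 0.66 ± 0.40 and 0.53 ± 0.40).

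The other Sox11 calls were gains at 24 h. Sox11 +3.0, in the untranslated region of the gene, went from 0.992 and 0.971 to 1.88 and 2.91 CPM in SOX2-FKBP (1.28 ± 0.44). This gain rested on 10 and 6 counts in NT and 17 and 27 at 24 h, and was absent under DESeq2. Sox11 +30.5, intergenic, went from 14.04 and 14.96 to 28.3 and 29.5 in OCT4-FKBP (0.99 ± 0.22), and this call held without each library.

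At Sox4, 7 of 14 peaks were gained in at least 1 comparison and 1 was lost, beside 19.3% and 20.5% of all tested peaks. Sox4 +35.9 (chr13:28917331-28918326, intergenic) held 1.396 and 1.68 CPM in OCT4-FKBP NT cells, 8.901 and 5.44 at 2 h, 10.4 and 8.21 at 6 h and 11.9 and 21.5 at 24 h. All treated libraries lay above both NT libraries (2.17 ± 0.40, 2.57 ± 0.39 and 3.41 ± 0.40, adjusted p = 2.11e-08 at 24 h). In SOX2-FKBP it was open in NT, at 9.03 and 6.31, and ranged from 4.79 to 10.5 through 2 h. It then held 12.9 and 9.003 at 6 h and 21.2 and 17.4 at 24 h, when the gain passed (1.29 ± 0.22, adjusted p = 2.93e-05). In NANOG-FKBP NT held 3.098 and 1.498, treated libraries 0.454 to 4.72, and no change passed.

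The SOX2-FKBP change at Sox4 +35.9 was lower than the OCT4-FKBP change at 2, 6 and 24 h (-1.99 ± 0.54, -2.04 ± 0.53 and -2.07 ± 0.53, adjusted p = 0.0446, 0.0208 and 0.0203). They were lost without SOX2-FKBP NT replicate 1 (-1.79), SOX2-FKBP 2 h replicate 2 (-1.78), OCT4-FKBP NT replicate 1 (-1.88), OCT4-FKBP NT replicate 2 (-2.24) or OCT4-FKBP 2 h replicate 1 (-1.62) at 2 h, without SOX2-FKBP NT replicate 1 (-1.82), SOX2-FKBP 6 h replicate 2 (-1.88), OCT4-FKBP NT replicate 1 (-1.93) or OCT4-FKBP 6 h replicate 1 (-1.85) at 6 h, and without SOX2-FKBP NT replicate 1 (-1.80), SOX2-FKBP 24 h replicate 2 (-1.91), OCT4-FKBP NT replicate 1 (-1.96), OCT4-FKBP NT replicate 2 (-2.25) or OCT4-FKBP 24 h replicate 2 (-1.58) at 24 h. The 2 h difference was absent under DESeq2 and total counts, the 6 h difference under total counts and the 24 h difference under total counts.

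**Figure D4:**
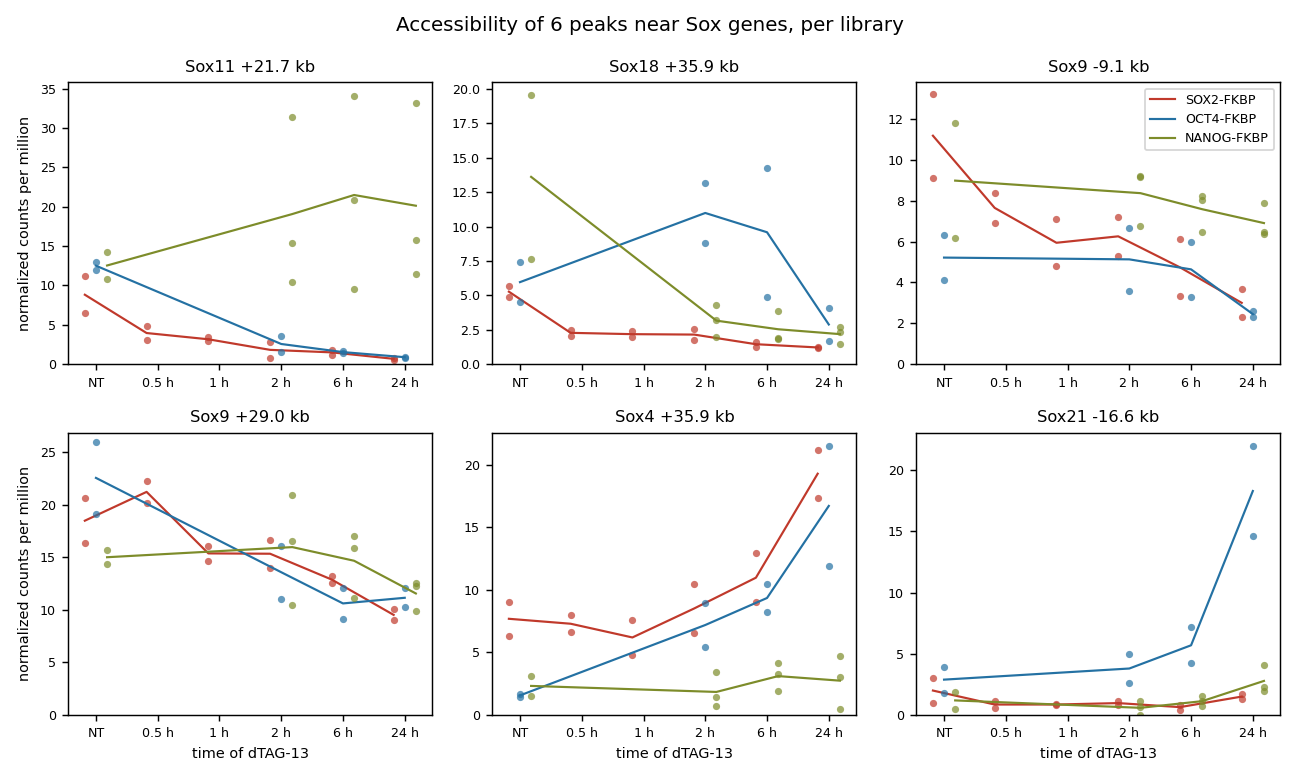
Normalized counts, CPM (y axis) of Sox peaks on which the results turn, in NT and after dTAG-13 (x axis, hours), with one point per library and lines through group means for the 3 lines. Sox11 +21.7 is lower after treatment in SOX2-FKBP and OCT4-FKBP, Sox18 +35.9 in SOX2-FKBP and NANOG-FKBP, and Sox4 +35.9 is higher in OCT4-FKBP from 2 h.

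Other Sox4 peaks moved mostly at 24 h. Sox4 +23.2 was gained in OCT4-FKBP, from 0.493 and 0.616 to 5.19 and 2.77 CPM (2.80 ± 0.50), which are 6 and 11 and then 34 and 17 counts. In SOX2-FKBP it held 1.79 and 1.46 in NT and 2.22 and 1.73 at 24 h, and the difference passed (-2.51 ± 0.71, adjusted p = 0.043). This difference was absent under DESeq2 and total counts. Sox4 -20.0 was gained in SOX2-FKBP (1.56 ± 0.50, 0.893 and 0.485 to 3.105 and 1.29). This gain rested on 9 and 3 counts in NT and 28 and 12 at 24 h, and was absent under DESeq2. Smaller gains in OCT4-FKBP were Sox4 -4.3 (0.59 ± 0.21) and Sox4 +5.4 (0.65 ± 0.24), and the former was lost without OCT4-FKBP NT replicate 1 (0.53), OCT4-FKBP NT replicate 2 (0.63) or OCT4-FKBP 24 h replicate 1 (0.29) and absent under the fit of OCT4-FKBP alone and total counts. Sox4 -35.5 was lost in OCT4-FKBP at 6 h (-0.77 ± 0.26), a call lost without OCT4-FKBP NT replicate 1 (-0.59), OCT4-FKBP NT replicate 2 (-0.93) or OCT4-FKBP 6 h replicate 2 (-0.40) and absent under DESeq2 and the fit of OCT4-FKBP alone. In NANOG-FKBP it was gained at 24 h, from 5.91 and 4.83 to 12.5, 10.9 and 15.01 (1.27 ± 0.27), a call lost without NANOG-FKBP NT replicate 2 (1.13).

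At Sox12, which lies among Zcchc3, Nrsn2 and 6820408C15Rik, 7 of 14 peaks were gained in one of the lines and 1 was lost, all at 24 h (19.3% and 20.5% of all tested peaks over the 11 comparisons). The OCT4-FKBP gains were Sox12 -39.6 in an intron of 6820408C15Rik (1.01 ± 0.23), Sox12 -13.2 (0.91 ± 0.25), Sox12 -8.2 (0.59 ± 0.22), Sox12 +5.1 (0.86 ± 0.25) and Sox12 +7.0 (0.78 ± 0.27). Sox12 -39.6 went from 6.897 and 7.68 to 17.1 and 12.2 CPM, without overlap, and was lost without OCT4-FKBP 24 h replicate 1 (0.75). In SOX2-FKBP, Sox12 +1.8 was gained beside Sox12 -1.0 (0.40 ± 0.15), but no replicate could be left out without losing the call, which was also absent under DESeq2, DESeq2 size factors in edgeR and the fit of all 3 lines. Sox12 +22.2, near the start of Nrsn2, was lost in SOX2-FKBP, from 9.23 and 9.87 to 4.66 and 5.61 (-0.89 ± 0.22), and this held without each library.

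In group E, 4 of 8 Sox9 peaks were lost at least once and none gained, beside 20.5% and 19.3% of all tested peaks. Sox9 -9.1 (chr11:112772730-112773687), in an intron of BC006965, held 9.13 and 13.3 CPM in SOX2-FKBP NT cells, 6.92 and 8.39 at 0.5 h, 7.1 and 4.79 at 1 h, 7.22 and 5.302 at 2 h, 3.36 and 6.12 at 6 h and 2.33 and 3.67 at 24 h. All treated libraries lay below both NT libraries, and the change passed from 1 h (-0.84 ± 0.26, -0.81 ± 0.24, -1.18 ± 0.25 and -1.86 ± 0.28). The calls were lost without SOX2-FKBP NT replicate 2 (-0.58) or SOX2-FKBP 1 h replicate 2 (-0.62) at 1 h, without SOX2-FKBP NT replicate 2 (-0.55) or SOX2-FKBP 2 h replicate 2 (-0.60) at 2 h and without SOX2-FKBP 6 h replicate 1 (-0.86) at 6 h, and the 24 h call held without each library. The 1 h call was absent under DESeq2 and total counts, and the 2 h call under DESeq2, the fit of all 3 lines and total counts. In OCT4-FKBP the peak held 4.11 and 6.33 in NT and 2.29 and 2.604 at 24 h (-1.11 ± 0.39, adjusted p = 0.0343), a call lost without OCT4-FKBP NT replicate 2 (-0.77), OCT4-FKBP 24 h replicate 1 (-1.01) or OCT4-FKBP 24 h replicate 2 (-1.20) and absent under DESeq2 and the fit of OCT4-FKBP alone. Its window holds none of the 3 motifs.

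In the main fits the 3 Sox9 peaks with an octamer were each called lost in both lines at some time. Sox9 +29.0 (chr11:112810541-112811838), with the composite without mismatch, held 20.6 and 16.3 CPM in SOX2-FKBP NT, 14.01 and 16.7 at 2 h, 13.2 and 12.5 at 6 h (-0.54 ± 0.17) and 8.98 and 10.03 at 24 h (-0.97 ± 0.18). The 6 h call was lost without SOX2-FKBP NT replicate 1 (-0.35), SOX2-FKBP 6 h replicate 1 (-0.60) or SOX2-FKBP 6 h replicate 2 (-0.50), and was absent under DESeq2, the fit of all 3 lines and total counts. In OCT4-FKBP it held 19.1 and 25.99 in NT, 11.03 and 16.1 at 2 h, 9.09 and 12.1 at 6 h (-1.09 ± 0.24) and 10.2 and 12.04 at 24 h (-1.02 ± 0.26), calls lost without OCT4-FKBP NT replicate 2 (-0.83) at 6 h and without OCT4-FKBP NT replicate 2 (-0.80) or OCT4-FKBP 24 h replicate 1 (-0.90) at 24 h. At 24 h 51.4% of the NT mean remained in SOX2-FKBP and 49.4% in OCT4-FKBP.

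Sox9 +19.4 (chr11:112801301-112801750) went from 4.07 and 3.397 CPM to 0.539 and 1.89 at 2 h, 1.36 and 1.35 at 6 h and 1.22 and 2.27 at 24 h in SOX2-FKBP (-1.59 ± 0.40, -1.47 ± 0.39 and -1.11 ± 0.38). In OCT4-FKBP it went from 2.38 and 3.03 to 1.23 and 1.11 at 6 h (-1.22 ± 0.36). Neither line showed overlap with NT at these times. The 2 and 6 h calls of Sox9 +19.4 in SOX2-FKBP were absent under DESeq2. The only Sox peak that DESeq2 called lost at 2 h was Sox11 +21.7. Its 4 losses at 6 h were Sox1 +36.5, Sox9 -9.1, Sox11 +21.7 and Sox18 +35.9. Sox9 +38.1 (chr11:112820127-112820538) was weaker, with 3.17 and 2.91 CPM in SOX2-FKBP NT and 0.776 and 1.19 at 24 h (-1.63 ± 0.41). In OCT4-FKBP it held 22 and 24 counts in NT and 6 and 6 at 6 h (-2.0 ± 0.52).

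In group F, Sox18 +35.9 (chr2:181635485-181636840) was lost in SOX2-FKBP and NANOG-FKBP. It lies in an intron of Prpf6, and its nearest coding start is that of Gm29797. In SOX2-FKBP it held 4.86 and 5.66 CPM in NT, 2.04 and 2.498 at 0.5 h, 1.95 and 2.39 at 1 h, 1.72 and 2.56 at 2 h, 1.26 and 1.62 at 6 h and 1.22 and 1.19 at 24 h. All treated libraries lay below both NT libraries (-1.23 ± 0.30, -1.28 ± 0.31, -1.26 ± 0.29, -1.83 ± 0.31 and -2.10 ± 0.33, adjusted p = 0.0132 at 0.5 h). The calls were lost without SOX2-FKBP NT replicate 1 (-1.35), SOX2-FKBP NT replicate 2 (-1.13) or SOX2-FKBP 0.5 h replicate 1 (-1.05) at 0.5 h, without SOX2-FKBP NT replicate 2 (-1.18) or SOX2-FKBP 1 h replicate 1 (-1.11) at 1 h and without SOX2-FKBP 2 h replicate 1 (-1.04) at 2 h. The 0.5 h call was absent under DESeq2, the 1 h call under DESeq2 and the 2 h call under DESeq2 and the fit of all 3 lines. The 6 and 24 h calls held without each library.

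In NANOG-FKBP Sox18 +35.9 went from 19.6 and 7.66 CPM to 4.31, 1.96 and 3.18 at 2 h, 3.87, 1.796 and 1.92 at 6 h and 1.47, 2.73 and 2.33 at 24 h (-1.91 ± 0.39, -2.21 ± 0.39 and -2.81 ± 0.41). No treated library reached an NT library, but NT replicate 1 was far above NT replicate 2. The call was lost without NANOG-FKBP NT replicate 1 (-1.08) at 2 h and without NANOG-FKBP NT replicate 1 (-1.37) at 6 h, and held at 24 h. In OCT4-FKBP the peak held 4.52 and 7.39 in NT, 8.804 and 13.2 at 2 h, 4.902 and 14.3 at 6 h and 1.68 and 4.07 at 24 h, and no change passed (0.87 ± 0.35, 0.67 ± 0.35 and -1.08 ± 0.45).

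The SOX2-FKBP change at Sox18 +35.9 minus the OCT4-FKBP change was -2.08 ± 0.58 at 2 h (adjusted p = 0.0573), -2.45 ± 0.61 at 6 h (adjusted p = 0.0141) and -0.98 ± 0.71 at 24 h (adjusted p = 0.579). The 6 h difference was lost without SOX2-FKBP 6 h replicate 1 (-2.38), OCT4-FKBP NT replicate 1 (-2.16) or OCT4-FKBP 6 h replicate 2 (-1.58). No test compared NANOG-FKBP with another line. Sox18 -22.3, at the promoter of Rgs19, was gained in SOX2-FKBP at 24 h (0.57 ± 0.20), a call lost without SOX2-FKBP NT replicate 1 (0.34), SOX2-FKBP 24 h replicate 1 (0.60) or SOX2-FKBP 24 h replicate 2 (0.51) and absent under DESeq2 and the fit of all 3 lines.

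In group G, no change at Sox15 +0.2 passed. It held 31.7 and 25.4 CPM in SOX2-FKBP NT cells and 24.9 to 36.96 after dTAG-13. Sox15 +34.8, in an intron of Tnfsf12, was lost at 24 h in SOX2-FKBP, from 8.13 and 9.38 to 5.65 and 3.78 (-0.88 ± 0.24), and in OCT4-FKBP, from 8.54 and 8.91 to 3.51 and 2.44 (-1.54 ± 0.36). The first of these calls was lost without SOX2-FKBP NT replicate 2 (-0.79) or SOX2-FKBP 24 h replicate 2 (-0.63) and in the fit of all 3 lines, and the second held without each library. Sox15 +7.3, at the promoter of Mpdu1, was gained in SOX2-FKBP at 24 h (0.45 ± 0.16), a call lost without SOX2-FKBP NT replicate 1 (0.42), SOX2-FKBP NT replicate 2 (0.47) or SOX2-FKBP 24 h replicate 1 (0.27) and absent under DESeq2 and the fit of all 3 lines. The other 11 of the 13 Sox15 peaks had no call.

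In the test of the difference between SOX2-FKBP and OCT4-FKBP, 1 of 81 Sox peaks passed at 2 h, 3 at 6 h and 3 at 24 h, each with the lower change in SOX2-FKBP (background 1.2%, 1.88% and 1.67%). In the other direction 0 passed in edgeR (0.374%, 0.847% and 1.1%), with 0, 4 and 1 at an unadjusted p below 0.05 and 0 by DESeq2. With the replicate block 2, 4 and 5 passed with the lower change in SOX2-FKBP and 0, 2 and 1 with the higher. Over all peaks the block gave 5182, 6981 and 6374 with the lower change and 2131, 3788 and 5341 with the higher. By total counts 1 Sox peak passed at 24 h, with the lower change in SOX2-FKBP. The 2 h call was lost without SOX2-FKBP NT replicate 1, SOX2-FKBP 2 h replicate 2, OCT4-FKBP NT replicate 1 or OCT4-FKBP 2 h replicate 1. At 6 h 1 passed without SOX2-FKBP NT replicate 1, either SOX2-FKBP 6 h library or OCT4-FKBP NT replicate 1. At 24 h 0 passed without SOX2-FKBP NT replicate 1, and 1 without SOX2-FKBP 24 h replicate 2 or either OCT4-FKBP NT library.

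The other 12 Sox genes had 104 peaks, 20 of them at Sox2. In SOX2-FKBP 3, 6, 6, 10 and 17 of 98 tested were lost over the 5 times (3.06%, 6.12%, 6.12%, 10.2% and 17.3%, against 3.14%, 5.46%, 7.28%, 9.28% and 14.1% of all peaks). Gains were 1, 0, 2, 2 and 11 (1.02%, 0%, 2.04%, 2.04% and 11.2%, against 0.158%, 0.889%, 1.46%, 2.66% and 9.17%). At 1 h, where edgeR called 0 gains, 4 were higher at an unadjusted p below 0.05 and DESeq2 called 0. In OCT4-FKBP 4, 6 and 19 of 100 were lost (background 5.1%, 7.97% and 12.7%) and 4, 3 and 8 gained (1.92%, 4.12% and 10.8%). In NANOG-FKBP edgeR called 0 at each time (lost background 0.938%, 1.08% and 2.25%), with 2, 2 and 4 lower and 1, 2 and 2 higher at an unadjusted p below 0.05, and DESeq2 called 0.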

How the data were processed

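ATACseq was analysed in 31 of 45 samples, and the other 14 were not analysed here. Per the submitters' processing notes and the study's methods, the authors aligned reads to mm10 with BWA 0.7.17-r1188, filtered with SAMtools 1.10, removed duplicates with Picard 2.12.0 and called peaks with MACS2 on the merged time series. The deposited values are raw counts of fragments per peak. The deposited peak list was used only for positions and summits.

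A peak needed over 10 counts in over 2 libraries of the SOX2-FKBP fit (12 libraries, 160432 peaks) or over 6 of the 3-line fit (27 libraries, 166430 peaks), and was tested against NT with edgeR 4.0.16 (R 4.3.3), by the quasi-likelihood test with TMM scaling and Benjamini-Hochberg adjustment over all peaks at 0.05. The 3-line fit gave the OCT4-FKBP and NANOG-FKBP results and the difference between SOX2-FKBP and OCT4-FKBP. Levels are TMM-normalized CPM, and errors are SE. The code was tested on simulated data with 200 changed peaks. Of 100 log2 fold changes of size 1 it recovered 18 (SOX2-FKBP, 2 h) and 14 (OCT4-FKBP, 2 h). Of 100 of size 2 it recovered 74 and 81. A peak without a call is therefore not shown to be unchanged. Alternatives were DESeq2 1.42.0, other scalings, no filter, other libraries in the fit, a replicate block and leaving out each replicate. Leaving out the 3 shallow NANOG-FKBP libraries was chosen after seeing the data.

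Named peaks were, per gene, the nearest to the 5′ end, the highest other peak in NT, and the loss and the gain with the lowest adjusted p. Other called peaks were named after their values were seen. For these, an alternative fit is cited only where the numbers of Sox calls under it settle the call. A call given without one was not followed further. Members and lists were chosen with earlier results of these data known. Deviations of same-numbered libraries correlated in all 15 SOX2-FKBP pairs of groups (r of 0.115 to 0.354, and 0.128 to 0.163 with NT). In OCT4-FKBP all 6 correlated (0.252 to 0.513), so the numbers pair samples in these 2 lines. The main tests left this pairing out, following the study's design of line and time, and the replicate block was an alternative. In NANOG-FKBP the 3 correlations with NT were 0.0219 to 0.116, and those among treated groups 0.306 to 0.366. The numbers were not taken as pairs there, although the block used them.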

Additional observations from a re-analysis of the deposited data

Results flagged for a closer look

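For 4 peaks the change after loss of SOX2 differed from the change after loss of OCT4 at the same time, by the difference tested in edgeR over all peaks. At Sox4 +35.9 the log2 change in SOX2-FKBP minus that in OCT4-FKBP was -1.99 (2 h), -2.04 (6 h) and -2.07 (24 h). For Sox4 +23.2 it was -2.51 after 24 h, a difference absent under DESeq2 and total counts. At Sox21 -16.6 it was -2.73 at 6 h and -3.21 at 24 h. At Sox18 +35.9 it was -2.45 at 6 h. The lines differ in strain and clone as well as in the depleted factor, and these cannot be told apart.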

How the results depend on the processing

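The values here are numbers of Sox peaks changed in either direction. In SOX2-FKBP, DESeq2 gave 0, 0, 1, 4 and 10 over the 5 times, total counts gave 1 at 0.5 h, and adding the other lines to the fit gave 2 at 2 h and 10 at 24 h. In OCT4-FKBP a fit of that line alone gave 14 at 24 h. For the difference between SOX2-FKBP and OCT4-FKBP, DESeq2 gave 0 at 2 h, no low count filter 2, a fit without NANOG-FKBP 2 and total counts 0, and total counts gave 1 at 24 h. The numbers of calls over all peaks changed with these fits too, and the causes were not tested.

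With the replicate block, which treats same-numbered libraries as paired, the counts were 6 in SOX2-FKBP at 1 h, 9 and 13 in OCT4-FKBP at 2 and 6 h, 2 in NANOG-FKBP at 2 h, and 2, 6 and 6 for the difference at 2, 6 and 24 h. By chromosome 8 share, NANOG-FKBP NT replicate 2 stood with treated replicate 3, not with treated replicate 2. The NANOG-FKBP block count therefore comes from numbers that do not pair those libraries. No named call was lost under the block.

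Leaving out each replicate gave 0 to 2, 1 to 4, 3 to 4, 3 to 7 and 9 to 12 in SOX2-FKBP at 0.5, 1, 2, 6 and 24 h, 2 to 4, 4 to 9 and 8 to 23 in OCT4-FKBP at 2, 6 and 24 h, 0 to 1, 0 to 1 and 2 to 3 in NANOG-FKBP, and 0 to 1, 1 to 3 and 0 to 2 for the difference. A group left with 1 library was assumed to vary like the others. Of 59 calls of named peaks, 34 held in every alternative fit and 20 of these also without each replicate, and 0 reversed. Most groups held 2 libraries, and weak peaks rested on few counts.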
